A study of Mus musculus with 10 samples.

Results

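This section describes 10 mouse genes for the carrier proteins that visceral endoderm secretes, Afp, Apoa1, Apoa2, Apoa4, Apob, Apoc2, Apoe, Apom, Trf and Alb. A probe set was taken as one of theirs when the platform annotation gave it a single gene symbol and that symbol was in this list. The rule found 19 probe sets for 9 of the 10 genes, 18 of the 22690 probe sets on the array type MOE430A and 1 (for Apob) of the 22575 on MOE430B. Trf had no probe set of its own. Of the 19, 16 passed the filter on dim probe sets described below, and all of the other 3 (Alb and a faint pair of Afp probe sets) are given with their signals.

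The RNA came from mouse embryos at embryonic day 5.5 from matings labelled B6SJLF1×CerlP-GFP, in which the anterior visceral endoderm (AVE) is fluorescent, with no treatment. The anterior distal fragment (Ad) held the fluorescent AVE and the epiblast beneath it, the posterior proximal fragment (Pp) held visceral endoderm and epiblast from the opposite side just under the extraembryonic boundary, and the last kind of sample was the whole embryo of the same matings. On each array type, Ad and Pp had 2 arrays each and the whole embryo had 1, with Ad and Pp replicates 1 and 2 on MOE430A and 3 and 4 on MOE430B. The labels do not say how many embryos went into a sample or whether replicates were separate embryos, so the p-values here reflect no more than how far these arrays differ, which may be technical. Fragments are mixtures of visceral endoderm and epiblast, and fewer cells of a type and less RNA per cell cannot be told apart in them.

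Visceral endoderm is the epithelium that wraps the early mouse embryo, takes up maternal nutrients on its outer face and secretes serum-type proteins, a role that the liver fills later. Apolipoproteins are the protein part of lipoprotein particles: Apob is the scaffold of large lipid-rich particles, Apoa1 and Apoa2 are the main proteins of high-density lipoprotein, Apoc2 is the cofactor of lipoprotein lipase, and Apoe is a ligand of lipoprotein receptors. Afp (alpha-fetoprotein) and Alb (albumin) are related carrier proteins encoded side by side, and Trf (transferrin) carries iron. Hepatocyte nuclear factors HNF1 and HNF4 and forkhead factors are known regulators of such genes in liver and visceral endoderm.

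The 250 bases before the annotated start of 4 of these genes are shown as pairs that lie near each other in the genome, Afp with Alb and Apoa1 with Apoa4. Afp and Apoa1 were called higher in the fragments than in the whole embryo. The Alb probe set did not pass the filter, and Apoa4 did not pass the test. A difference between the genes of a pair was not tested, nor was a link between motifs and array results. The sequences are from RefSeq, build GRCm38.p6, written 5′ to 3′ on the gene's strand, and capitals mark every match on either strand to 6 motifs: GTTAAT (a part of the HNF1 site), the full HNF1 palindrome, CAAAGT (the core of HNF4 sites), CAAAGTCCA (a longer HNF4 site), TGTTTAC (bound by forkhead factors) and TATAAA (the core promoter element near many start sites).
Afp, chr5:90490464-90490713, plus strand: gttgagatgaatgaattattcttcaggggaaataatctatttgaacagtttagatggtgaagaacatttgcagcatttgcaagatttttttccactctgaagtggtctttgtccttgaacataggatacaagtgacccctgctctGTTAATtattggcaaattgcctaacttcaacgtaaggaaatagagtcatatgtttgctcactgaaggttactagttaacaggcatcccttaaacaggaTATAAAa
Alb, chr5:90460620-90460869, plus strand: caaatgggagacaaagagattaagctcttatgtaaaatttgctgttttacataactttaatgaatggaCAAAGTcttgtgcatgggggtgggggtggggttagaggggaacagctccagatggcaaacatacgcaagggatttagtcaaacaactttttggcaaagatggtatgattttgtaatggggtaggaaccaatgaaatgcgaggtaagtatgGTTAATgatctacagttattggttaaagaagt
Apoa1, chr9:46228380-46228629, plus strand: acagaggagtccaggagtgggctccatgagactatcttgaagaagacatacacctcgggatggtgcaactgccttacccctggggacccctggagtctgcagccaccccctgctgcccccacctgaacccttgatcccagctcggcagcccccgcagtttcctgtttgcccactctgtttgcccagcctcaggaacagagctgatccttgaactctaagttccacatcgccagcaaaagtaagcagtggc
Apoa4, chr9:46240594-46240843, plus strand: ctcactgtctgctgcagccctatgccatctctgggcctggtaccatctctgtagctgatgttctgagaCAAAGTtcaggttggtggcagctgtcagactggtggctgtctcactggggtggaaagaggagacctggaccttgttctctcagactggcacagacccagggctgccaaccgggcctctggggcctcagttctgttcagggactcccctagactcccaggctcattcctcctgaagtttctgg
In the Afp window, the first base of GTTAAT lay 105 and that of TATAAA 7 bases before the annotated start. In the Alb window, the first base of CAAAGT lay 182 and that of GTTAAT 32 bases before it. The Apoa4 window held CAAAGT, 182 bases before the start, and the Apoa1 window held none of the 6 motifs. RefSeq gave 12 such windows for 9 of the 10 genes. GTTAAT stood in 4 of these 12 windows (Afp, Alb, Apoc2 and Apoe) and in 6.43% of the 32851 windows in the table. CAAAGT stood in 3 (Alb, Apoa4 and Apoc2) and in 12.6% of all windows, and TATAAA in 4 (Afp, Apoa2, Apob and Apoe) and in 12.4%. TGTTTAC stood in 1 (Apoa2) and in 3.17%, and overlapping matches occurred only between TATAAA copies in an Apoe window. The full HNF1 site (0.00913% of all windows) and CAAAGTCCA (0.384%) had no match. The motifs were chosen with the windows in view, a match of letters is a description and not a binding site, and no match says only that those letters are not in the window.

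The values are MAS5 signals, the brightness summary of a probe set in arbitrary units on a linear scale, so levels are compared between arrays for 1 probe set and not between probe sets. Differences were fitted with limma on the log2 scale after a pseudocount of 247 (MOE430A) or 10.5 (MOE430B) was added, over the probe sets whose mean lay above a signal of about 464 (MOE430A) or 37.2 (MOE430B). A probe set passed when its Benjamini-Hochberg adjusted p was under 0.05 over all 13575 or 13506 kept probe sets. Intervals are 95%. On MOE430A, array medians were 590.3 to 644 and Gapdh control probe sets gave a 3′ over 5′ ratio between 1.40 and 1.60. For Actb this ratio reached 5.87 in the whole embryo and lay between 3.69 and 4.50 in fragments, so this sign of RNA quality moved with the comparison to the whole embryo, and its part in the results was not tested. As a check of the labels, Lefty1, an AVE gene, was at 6489 and 4658 in Ad and 912 and 987 in Pp (adjusted p = 0.0136). The brightest probe set of Cer1, whose reporter guided the dissection, was at 1532 and 1413 in Ad and 899 and 861 in Pp and did not pass (adjusted p = 0.0863).

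Afp and Apoa1 were higher in the fragments than in the whole embryo, and the other measured genes did not pass. By the brightest probe set of each gene, 2 of 8 measured genes were called higher and 0 lower, on an array where 4.6% of kept probe sets were called higher, 5.19% lower and 9.78% in either direction. Of the 15 kept MOE430A probe sets, 9 had an unadjusted p under 0.05 there, against 27.3% of all. All 8 genes had a positive log2 difference, as did 60.8% of all kept probe sets. Of the 8 genes, 7 lay between 0.26 and 1.09 and Apoc2 at 0.01. The median of the 8 was 0.40, against 0.05 over all kept probe sets. Between Ad and Pp, 0 of the 8 passed in limma, 2 of the 8 had an unadjusted p under 0.05 (Afp and Apoc2, against 11.7% of kept probe sets), and 0.169% of kept probe sets passed, 0.162% higher and 0.00737% lower in Ad. There, 4 genes were positive and 4 negative, and 41.1% of all kept probe sets were positive. The median of the 8 genes was 0.03, against -0.03 over all kept probe sets. On the centred log2 scale, all 4 fragment arrays lay above the whole embryo for 13 of the 15 kept MOE430A probe sets, and for 38.5% of all kept probe sets. For Apoe and the Apoa4 probe set 1417761_at this held only after centring. The probe sets of a gene share its RNA and are not independent.

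**Figure D1:**
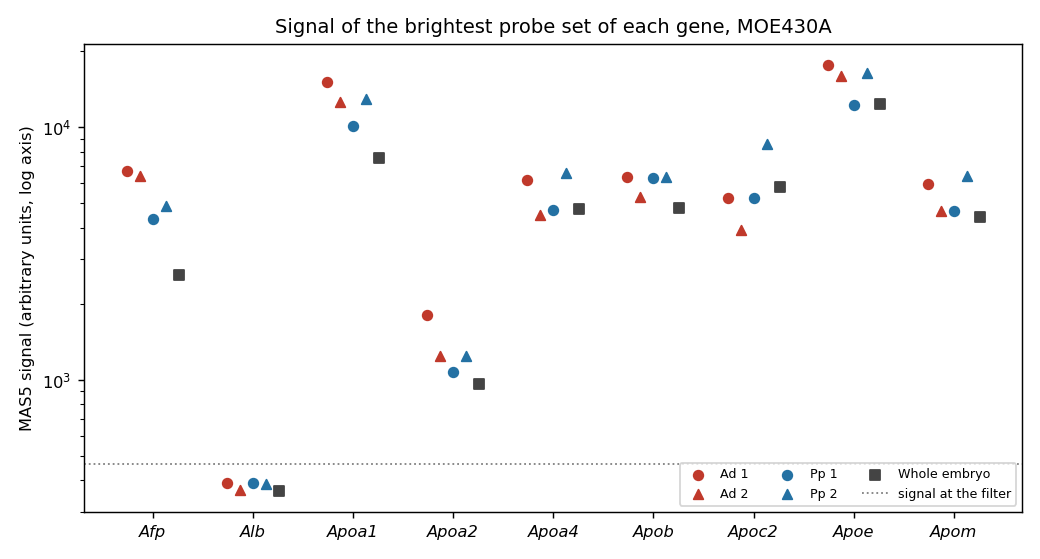
MAS5 signal (arbitrary units, log axis) of the brightest probe set of each gene on the 5 MOE430A arrays, with Ad in red, Pp in blue, the whole embryo as black squares and replicates 1 and 2 as circles and triangles. Afp and Apoa1 have the whole embryo clearly below all 4 fragments. Apoa2, Apob and Apom also have it lowest, by less, and Apoa4, Apoc2 and Apoe have it among the fragments. Alb lies below the dotted line at the filter signal of 464 on all arrays.

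Afp encodes the main serum carrier of the early embryo. Its brightest probe set (1416645_a_at) read 6689.5 and 6409.5 in Ad, 4333 and 4888 in Pp and 2596 in the whole embryo. Ad was highest, Pp intermediate and the whole embryo lowest, with no overlap between the kinds of sample. The fragments were 2.13-fold higher than the whole embryo (log2 difference 1.09, interval 0.86 to 1.32, adjusted p = 0.00248). A second probe set, 1436879_x_at, read 6031 and 5461 in Ad, 4134 and 4643 in Pp and 2138 in the whole embryo, in the same order. Its fragments were 2.33-fold higher (log2 difference 1.22, interval 0.98 to 1.47, adjusted p = 0.00212). The third, 1416646_at, read 3834 and 2867 in Ad, 2417 and 3014 in Pp and 1230.4 in the whole embryo, so that Ad and Pp overlapped while both stayed above the whole embryo. It was 2.32-fold higher in the fragments (log2 difference 1.21, interval 0.79 to 1.64, adjusted p = 0.0152). These 3 calls held under all 11 alternative settings of that comparison. None of those settings left out or replaced the single whole-embryo array, so they cannot show how far the calls rest on it.

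The Ad and Pp levels of Afp were separated in both brighter probe sets, but the difference did not pass. For 1416645_a_at it was 1.34-fold higher in Ad (log2 difference 0.42, interval 0.21 to 0.62, adjusted p = 0.208), and for 1436879_x_at 1.23-fold (0.30, interval 0.08 to 0.52, adjusted p = 0.341). On the centred log2 scale, both Ad arrays lay above both Pp arrays in 16.2% of all kept probe sets and in 2 of the 15 here, and both below in 29.1% and in 2 (Apoc2 and Apob). Leaving out Pp replicate 1 gave 0.33 with adjusted p = 0.0435 for 1416645_a_at, and leaving out Pp replicate 2 gave 0.51 with adjusted p = 0.00544, where 1436879_x_at passed as well (adjusted p = 0.0337). In those fits the spread came from the Ad pair alone, and the calls over the whole array rose from 23 to 811 and 505. The faint pair of Afp probe sets was too dim to show a difference or its absence. 1436880_at read between 263 and 325 and 1436881_x_at between 184 and 207 on all 5 arrays, below the filter, and with no filter their log2 differences between fragments and whole embryo were 0.08 (interval -0.11 to 0.26) and 0.10 (interval -0.05 to 0.25).

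Alb, the gene next to Afp, was too dim to show a difference or its absence. Its probe set 1425260_at read 391 and 365 in Ad, 389.9 and 386 in Pp and 363 in the whole embryo, within a narrow band below the filter signal. With no filter its log2 difference was 0.11 between fragments and whole embryo (interval -0.03 to 0.25, adjusted p = 0.298) and -0.06 between Ad and Pp (interval -0.19 to 0.06, adjusted p = 0.723). A signal this close to the dimmer part of the array cannot show whether Alb RNA was present. Afm, the afamin gene on the other side of Afp, read 680.4 to 771 in fragments and 849.5 for the whole embryo, and its differences did not pass.

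No level can be given for Trf itself. A probe set listed under both Trf and its neighbour Srprb, which encodes a subunit of the signal recognition particle receptor, read 2533 and 2333 in Ad, 1227 and 1714 in Pp and 858 in the whole embryo, and cannot be assigned to either gene by its annotation. Those readings fell in the order Ad, Pp, whole embryo without overlap, as for Afp. It was 2.04-fold higher in the fragments than in the whole embryo (log2 difference 1.03, interval 0.64 to 1.42, adjusted p = 0.0184) and had a log2 difference of 0.59 between Ad and Pp without passing (adjusted p = 0.285). The probe set listed under Srprb alone read 742 to 803 in fragments and 701 for the whole embryo, with a log2 difference of 0.20 (adjusted p = 0.157). Neither probe set enters the counts of the 8 genes.

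Apoa1 encodes the main protein of high-density lipoprotein. Its brightest probe set (1419233_x_at) read 15192 and 12570.0 in Ad, 10099 and 12927 in Pp and 7534 in the whole embryo, so Ad and Pp overlapped and the whole embryo was lowest. The fragments were 1.74-fold higher (log2 difference 0.80, interval 0.40 to 1.20, adjusted p = 0.0373). The probe set 1419232_a_at, which is not of the x type, read 10558 and 8322 in Ad, 6341 and 8612 in Pp and 4237 in the whole embryo, a 2.02-fold difference (adjusted p = 0.0319). The suffix x marks probe sets whose probes may also match other transcripts. This applies as well to the Afp probe sets 1436879_x_at and 1436881_x_at and to the Apoa4 probe set 1436504_x_at. The other 2 probe sets of the gene, 1438840_x_at and 1455201_x_at, were 1.72-fold higher in the fragments, with adjusted p of 0.0425 and 0.0354. The Apoa1 calls were less firm than those of Afp: for 1419233_x_at the adjusted p was 0.116 without Ad replicate 1, 0.107 without Ad replicate 2 and 0.0590 with no filter, and the other 3 probe sets lost their calls in the same settings. Between Ad and Pp the 4 probe sets had log2 differences of 0.20 to 0.26 with adjusted p of 0.542 to 0.613. Without Pp replicate 2 the differences of 1419233_x_at, 1419232_a_at, 1438840_x_at and 1455201_x_at were 0.38, 0.48, 0.45 and 0.42. Without Pp replicate 1 the differences of these 4 probe sets, in the same order, were 0.02, 0.04, 0.03 and 0.05.

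Apoa4 and Apoa2, the other genes of the apolipoprotein A group here, did not pass in either comparison. Apoa4, which encodes a protein of lipid-rich particles and lies in the same gene cluster as Apoa1, read 6200.3 and 4491 in Ad, 4710.3 and 6614 in Pp and 4769 in the whole embryo by its brighter probe set, 1436504_x_at. The whole embryo lay within the range of the fragments. The log2 difference was 0.26 (interval -0.29 to 0.81, adjusted p = 0.501), and that of the fainter probe set, 1417761_at, was 0.28 (interval -0.36 to 0.91, adjusted p = 0.534). Whether Apoa1 and Apoa4 differ from each other in this was not tested, and their intervals overlap. Apoc3, encoded between them, had a log2 difference of 0.19 (adjusted p = 0.153), and Apoa5, at the end of the cluster, -0.05 (adjusted p = 0.718). Apoa2 read 1801 and 1242 in Ad, 1069 and 1239 in Pp and 959 in the whole embryo. Ad replicate 1 stood above the other 4 arrays, and the fragments were 1.37-fold higher without passing (log2 difference 0.45, interval 0.03 to 0.88, adjusted p = 0.163). Without Pp replicate 1 the log2 differences from the whole embryo were 0.50 for Apoa2, 0.38 for 1436504_x_at and 0.43 for 1417761_at. Without Pp replicate 2 they were 0.41 for Apoa2, 0.14 for 1436504_x_at and 0.13 for 1417761_at.

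Apob, the scaffold of lipid-rich lipoproteins, was the gene nearest to a call among those that did not pass against the whole embryo. Its MOE430A probe set read 6350.2 and 5305 in Ad, 6327 and 6355 in Pp and 4807 in the whole embryo, which was the lowest array. The difference was 1.32-fold (log2 difference 0.40, interval 0.14 to 0.66, adjusted p = 0.0698). The log2 difference was 0.41 without Pp replicate 1 and 0.40 without Pp replicate 2. On MOE430B the other Apob probe set read 114 and 124 in Ad, 101 and 124 in Pp and 96.6 in the whole embryo, again the lowest array, with a log2 difference of 0.23 (interval -0.17 to 0.62, adjusted p = 0.548). There 2.21% of kept probe sets passed (0.407% higher and 1.81% lower in the fragments), 16.4% had an unadjusted p under 0.05, and all 4 fragment arrays lay above the whole embryo in 28.8%. The Ad minus Pp difference of Apob on MOE430A was -0.31 without Ad replicate 1 and -0.07 without Ad replicate 2. With all arrays, Apob differed between Ad and Pp by -0.19 on MOE430A (interval -0.42 to 0.04, adjusted p = 0.478) and by 0.0045 on MOE430B (interval -0.35 to 0.36, adjusted p = 0.993), where 0.111% of kept probe sets passed (0.104% higher and 0.0074% lower in Ad) and 10.4% had an unadjusted p under 0.05.

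Apoe and Apom leaned towards the fragments without passing. Apoe, the receptor ligand, read 17625 and 16000.4 in Ad, 12219 and 16384 in Pp and 12387 in the whole embryo. Pp replicate 1 and the whole embryo were close together and below the other 3 arrays. The log2 difference between fragments and whole embryo was 0.39 (interval -0.01 to 0.79, adjusted p = 0.193). It was 0.50 without Pp replicate 1 and 0.28 without Pp replicate 2. Between Ad and Pp it was 0.17 (interval -0.18 to 0.53, adjusted p = 0.660). That value went to 0.39 without Pp replicate 2 and to -0.04 without Pp replicate 1. Apom, a lipocalin carried on high-density lipoprotein, read 5963 and 4671 in Ad, 4653 and 6411 in Pp and 4404 in the whole embryo by its brighter probe set. Ad and Pp overlapped fully (log2 difference -0.12, interval -0.55 to 0.31, adjusted p = 0.814), and the fragments were 1.28-fold above the whole embryo without passing (0.35, interval -0.13 to 0.83, adjusted p = 0.302). The fainter Apom probe set had an adjusted p of 0.293 there. Without Pp replicate 1 the brighter and fainter probe sets differed from the whole embryo by 0.47 and 0.44, and without Pp replicate 2 by 0.24 and 0.20. Between Ad and Pp the fainter one had a log2 difference of -0.41 without Pp replicate 1 and 0.06 without Pp replicate 2.

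Apoc2, the cofactor of lipoprotein lipase, had the largest difference between Ad and Pp among the 8 genes, in the direction of Pp. It read 5226 and 3938 in Ad, 5241 and 8561 in Pp and 5794 in the whole embryo. Pp replicate 2 alone stood high, Pp replicate 1 lay next to Ad replicate 1, and the whole embryo lay inside the range of the fragments. The log2 difference between Ad and Pp was -0.61 (interval -1.20 to -0.02, adjusted p = 0.417). It was -0.96 without Pp replicate 1 and -0.26 without Pp replicate 2. Between fragments and whole embryo it was 0.01 (interval -0.65 to 0.67, adjusted p = 0.979). Apoc4, its neighbour, had log2 differences of -0.21 between Ad and Pp (adjusted p = 0.425) and 0.22 between fragments and whole embryo (adjusted p = 0.196). Lpl, which encodes the lipase that Apoc2 activates, read 601 and 622 in Ad, 890.0 and 735 in Pp and 893 in the whole embryo and did not pass between Ad and Pp (log2 difference -0.37, adjusted p = 0.273). Lpl is named here for its link to Apoc2, after its values were seen.

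**Figure D2:**
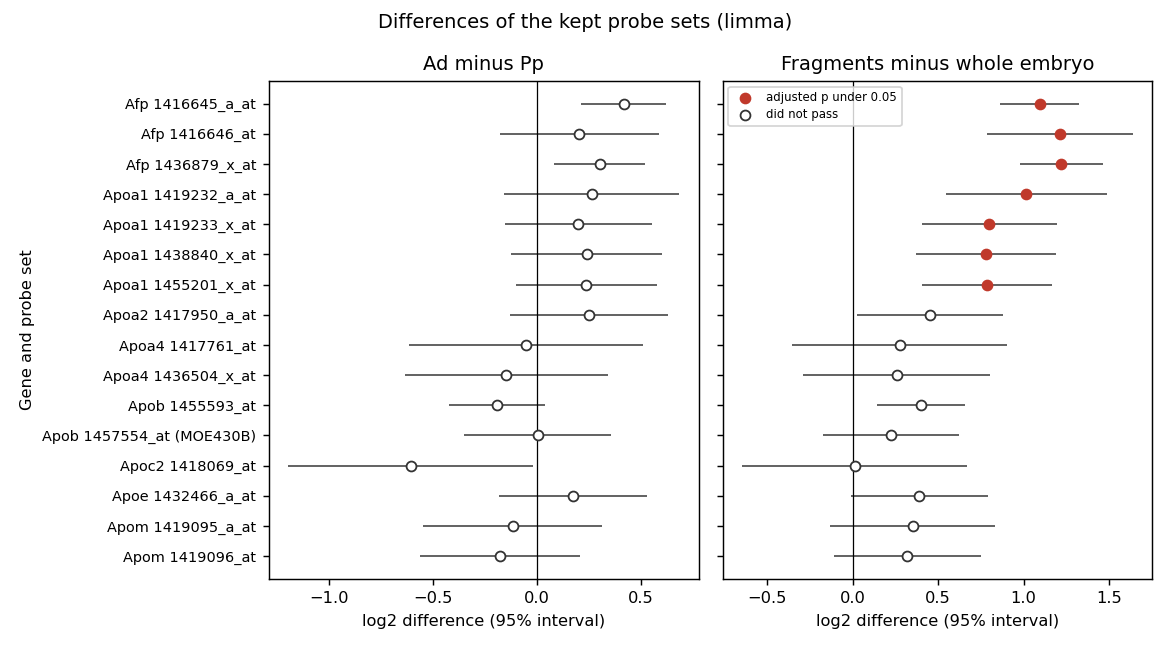
Log2 differences of the 16 kept probe sets with 95% intervals, Ad minus Pp on the left and fragments minus whole embryo on the right, with filled red points for adjusted p under 0.05. On the right the 3 brighter Afp and the 4 Apoa1 probe sets pass, and on the left none does.

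The replicates of a fragment differed in 1 direction for all 8 measured genes. On the centred log2 scale, all 8 genes were higher in Ad replicate 1 than in Ad replicate 2, by 0.04 (Afp) to 0.44 with a median of 0.29. All 8 were also higher in Pp replicate 2 than in Pp replicate 1, by 0.02 (Apob) to 0.70 (Apoc2) with a median of 0.40. Over all kept probe sets the medians of these replicate differences were -0.0019 and 0.01, and 49.4% and 53.2% of probe sets were positive. The 16 other visceral endoderm markers moved alike but by less: 13 were higher in Ad replicate 1 (median 0.15) and 14 in Pp replicate 2 (median 0.19). Markers of extraembryonic ectoderm and ectoplacental cone had a summed signal of 35334 in Pp replicate 2 against 23046 in Pp replicate 1, and 24829 and 23492 in Ad. The part of these markers in the replicate differences was not tested. For MOE430B, where only Apob was measured, the Ad pair differed by -0.10 and the Pp pair by 0.21, and 52.2% and 50.3% of all kept probe sets were positive in those differences.

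**Figure D3:**
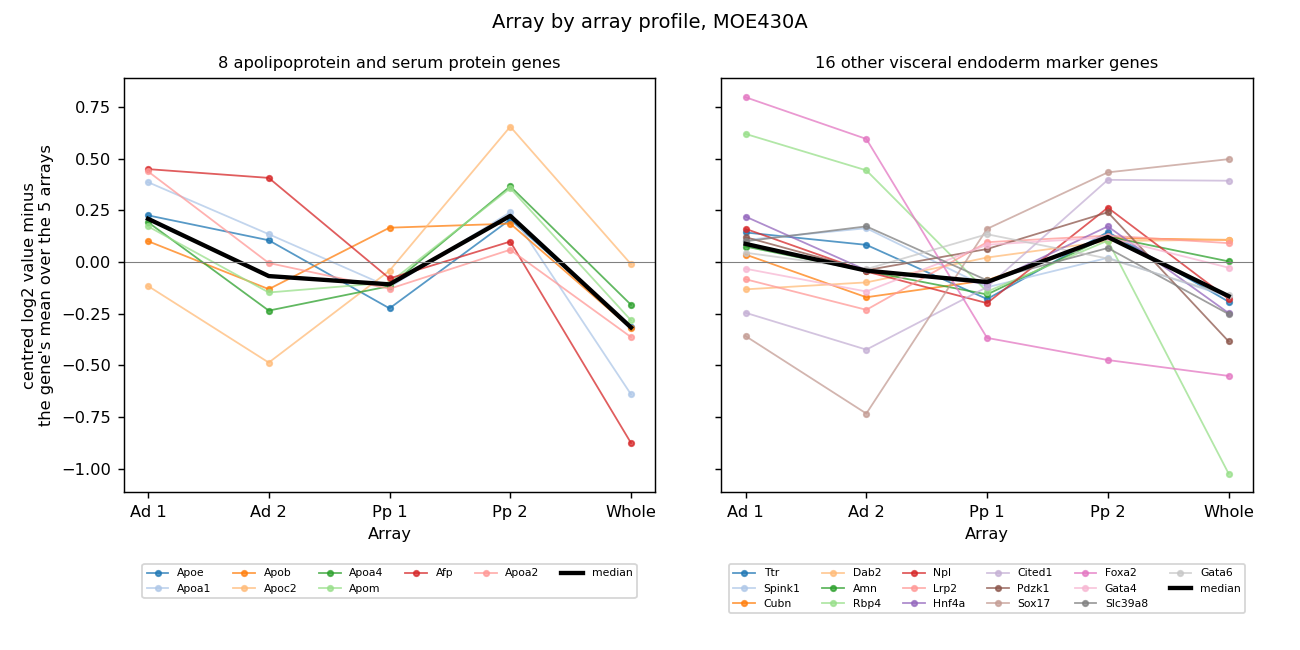
Centred log2 value of each gene minus its mean over the 5 MOE430A arrays, by array, for the 8 measured apolipoprotein and serum protein genes (left) and 16 other visceral endoderm markers (right), with the median as a thick black line; lines join arrays only to help follow a gene. On the left every gene is higher in Ad 1 than in Ad 2 and in Pp 2 than in Pp 1, and Afp and Apoa1 drop most in the whole embryo.

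Other secreted serum proteins gave a mixed picture beside Afp and Apoa1. Of 33 liver-type serum protein genes, 14 were measured on MOE430A, and between fragments and whole embryo 3 were called higher, 2 lower and 9 did not pass (median log2 difference 0.20 against 0.05 over all kept probe sets). Rbp4, the retinol carrier, read 5237 and 4550.3 in Ad, 2833 and 3373 in Pp and 1556 in the whole embryo, the same order of sample kinds as Afp. Rbp4 was 2.43-fold higher in the fragments (adjusted p = 0.00385), and A2m, a protease inhibitor, was 1.73-fold lower (adjusted p = 0.00840). The other 3 calls involve signals under the filter signal of 464 in the dimmer group, so no fold is given for them. The fibrinogen chain gene Fgg, called higher, read 520.1 to 947 in fragments and 409 for the whole embryo. Fgb, another fibrinogen chain gene, was also called higher and read 672 and 596 in Ad, 419.7 and 404 in Pp and 343 in the whole embryo, so that it passed the filter through Ad. Serping1, an inhibitor of complement, was called lower and read 329.7 to 428 in fragments and 1912 for the whole embryo, so that it passed the filter through the array on which it was high. Ttr (transthyretin), a carrier of thyroid hormone and a standard visceral endoderm marker, had a log2 difference of 0.24 (adjusted p = 0.290), Spink1 one of 0.21 (adjusted p = 0.191) and Serpinf2 one of 0.27 (adjusted p = 0.204). Between Ad and Pp 0 of the 14 passed (median 0.07), and Rbp4 had a log2 difference of 0.55 (adjusted p = 0.208).

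Of a list of 12 other apolipoprotein genes, which also counts the receptor gene Apobr, 8 were measured on MOE430A. None was called higher in the fragments. Clu (clusterin) was 1.90-fold lower in the fragments (adjusted p = 0.0143) and Apobr, a receptor for Apob-containing particles, 1.26-fold lower (adjusted p = 0.0480). Of the 8, 3 were positive (60.8% of all kept probe sets were), with a median of -0.08. Between Ad and Pp 0 passed and 1 was positive (41.1% of all kept probe sets were), with a median of -0.07.

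Of 24 assembly and lipid transfer genes, 17 were measured on MOE430A: 1 was called higher, 2 lower and 14 did not pass between fragments and whole embryo (median -0.06), and 0 passed between Ad and Pp (median -0.06). Pdzk1, a scaffold protein that binds the lipoprotein receptor Scarb1, was 1.39-fold higher in the fragments (adjusted p = 0.0465). Abca1, a cholesterol exporter that loads Apoa1, was 3.78-fold lower (adjusted p = 0.000723), and Sec24d, a coat protein of secretory vesicles, 1.30-fold lower (adjusted p = 0.0340). Mttp, which loads lipid onto Apob, read 2302 to 2516 in fragments and 2339 for the whole embryo (log2 difference 0.11, interval -0.09 to 0.31); it is named for that role, after its values were seen. P4hb, its partner subunit, and the trafficking genes Sar1b and Surf4 had log2 differences of -0.17, 0.16 and 0.03, and Dgat2, a triglyceride synthesis enzyme, one of -0.87 (adjusted p = 0.0742). Of 17 receptor genes, 13 were measured, 0 were called higher and 1 lower between fragments and whole embryo (median -0.11), which was Lrp1, a broad lipoprotein receptor, at 1.37-fold (adjusted p = 0.0362). The visceral endoderm uptake genes Cubn, Dab2 and Amn and the receptor chaperone gene Lrpap1 had log2 differences between -0.14 and 0.00 and did not pass. On MOE430B 0 of 2 assembly genes and 0 of 6 receptor genes passed.

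Among the liver-type and visceral endoderm transcription factors, 16 of 22 were measured on MOE430A. Hnf4a, a direct regulator of many apolipoprotein genes, read 2869.8 and 2327 in Ad, 2124 and 2599 in Pp and 2068 in the whole embryo. It did not pass (fragments minus whole embryo 0.31, adjusted p = 0.230). Its replicates differed in the direction of the 8 genes, which is not particular to it. Of the 16 visceral endoderm markers, 13 had that direction in the Ad pair and 14 in the Pp pair. Foxa2, a forkhead factor also expressed in the AVE, was called higher in Ad than in Pp (log2 difference 1.12, adjusted p = 0.0237) and in the fragments than in the whole embryo (0.69, adjusted p = 0.0174). The other 15 did not pass in either comparison. Sox17 had a log2 difference of -0.84 between Ad and Pp (adjusted p = 0.170), and Srebf1 and Srebf2, the regulators of lipid synthesis genes, -0.07 and -0.22. On MOE430B a Zfhx3 probe set was higher in the fragments (57.5 to 91.5 against 4.42, under the filter signal, in the whole embryo, adjusted p = 0.00631), while its MOE430A probe set had a log2 difference of -0.13.

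Marker lists of other tissues moved with the comparison to the whole embryo. Of 21 decidua markers (the maternal tissue around the embryo), 17 were measured on MOE430A, 12 were called lower in the fragments and 0 higher (median -1.13), and their summed signal was 41518 in the whole embryo against 12331 to 13831 in fragments. None of the 17 was at 0: the lowest fragment value was 156, for Bmp2. Of the 12 called, Col1a1, Hoxa10 and Wnt4 were under the filter signal on all 4 fragment arrays and passed the filter through the whole embryo. Parietal endoderm markers were lower in 6 of 8 measured genes (summed signal 11404 to 16732 against 27340), and extraembryonic ectoderm and ectoplacental markers in 3 of 12. Epiblast markers were higher in 6 of 9 (median 0.65, summed signal 43408 to 48916 against 32643). The 16 visceral endoderm markers outside the described genes were called higher in 3 (Rbp4, Foxa2 and Pdzk1) and lower in 0, with a median of 0.21 and a summed signal of 65665 to 79243 against 72167, while the sum over the 8 described genes was 48651 to 65047 against 43251. Of 10 measured AVE markers, 5 were called higher in the fragments than in the whole embryo (median 0.47; summed signal 25749 and 20845 in Ad, 8383 and 7721 in Pp and 9970.5 in the whole embryo) and 5 were called higher in Ad than in Pp (median 1.08). Of 18 maternal blood and leucocyte markers, 9 were measured, and Csf1r was lower (adjusted p = 0.0458). Summed signals are of uncentred values and weigh the brightest probe sets most. In the whole-embryo sum over the 8 described genes, Apoe stood at 12387 and Apoa1 at 7534. The part of what these markers show in the Afp and Apoa1 differences was not tested.

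**Figure D4:**
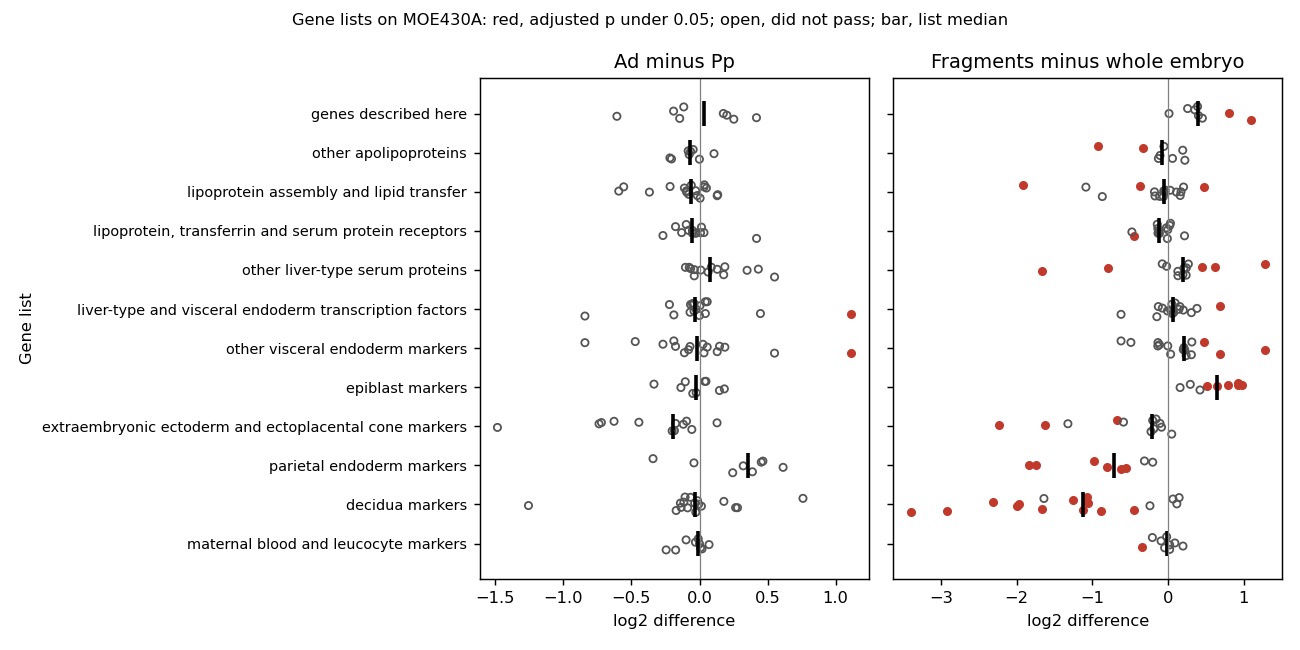
Log2 differences on MOE430A for the brightest probe set of each measured gene in 12 gene lists, Ad minus Pp on the left and fragments minus whole embryo on the right (different axis ranges); red points have adjusted p under 0.05 and black bars are list medians. On the right the genes described here have a median of 0.40, epiblast markers 0.65 and decidua markers -1.13.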

How the data were processed

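Each deposited value is the intensity of a probe set, linear and not logged; the submitters' processing notes name MAS5, without version, scaling target or floor. Per the labels, RNA was linearly amplified to make the probe. Each array type was analysed alone with R 4.3.3 and limma 3.58.1. The 20th percentile of all values, controls included, was added as a pseudocount, log2 was taken, 64 control probe sets were left out, probe sets above the 40th percentile of mean log2 were kept, and each array was centred on its median. A model with 3 sample kinds (2 residual degrees of freedom) was fitted with lmFit and eBayes; with 1 whole-embryo array, its spread was taken from the fragment arrays. Tests are two-sided, and every adjusted p comes from limma. A fold is taken from the fitted log2 difference, which the pseudocount draws towards 1, and ± values are not given because a pair of arrays is printed in full. The number of arrays limits the precision. Gene symbols came from the platform annotation (20380 with 1 symbol, 691 with several and 1555 with none on MOE430A; 14661, 245 and 7605 on MOE430B).

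All probe sets of the 10 genes are named; a gene is counted by its brightest kept probe set, that with the highest mean log2. Of the other lists, genes past the threshold (up to 8 a list, by size) and the 4 brightest were eligible to be named. Afm, Srprb, Mttp and Lpl fall outside this rule and were chosen after their values were seen, for their position or link to the genes described; Cer1 and Lefty1 are named as a check of the labels. The genes and lists were chosen with earlier results of these data known. The script was tested on simulated data. Alternatives were no centring, quantile normalization, no pseudocount, a pseudocount at the 40th percentile, no filter, a filter at the 60th percentile, a replicate block, a trend of variance with intensity, Ad and Pp arrays only, and leaving out each Ad or Pp array.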

Additional observations from a re-analysis of the deposited data

How the results depend on the processing

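No alternative of the comparison to the whole embryo left out or replaced its single array. Against the whole embryo on MOE430A, the count of 2 called genes (Afp and Apoa1) held with no centring, quantile normalization, no pseudocount, the larger pseudocount, the stricter filter and an intensity trend. It fell to 1 (Afp) with no filter, which tests more probe sets, and ranged from 1 to 7 when 1 fragment array was left out: 1 without either Ad replicate, 7 without Pp replicate 1 and 5 without Pp replicate 2. Between Ad and Pp the count of 0 ranged from 0 to 2 on leaving out an array (2 without either Pp replicate). In both comparisons, calls over all MOE430A probe sets also fell without an Ad replicate and rose without a Pp replicate. Without a Pp replicate the spread came from the Ad pair alone. The larger gene counts in those settings moved with the whole array and are not a result about these genes. With no centring, 338 of 1304 calls on MOE430A against the whole embryo were higher, in place of 624 of 1328. Calls over all probe sets moved most on leaving out an array: 1 to 811 between Ad and Pp (23 with all arrays) and 274 to 3493 against the whole embryo on MOE430A, and 0 to 131 (15 with all arrays) and 101 to 1180 (299 with all arrays) on MOE430B. In the other settings, no centring gave 46 between Ad and Pp on MOE430A, and MOE430B ranged from 2 (no filter) to 30 there and from 196 (no filter) to 425 against the whole embryo. On MOE430B, where only Apob was measured, the counts stayed at 0 in every alternative.

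With the replicate number as a block, 0 genes passed between Ad and Pp on either array type; over all probe sets the block gave 24 calls on MOE430A in place of 23, and 29 on MOE430B in place of 15. Nothing in the labels ties equal numbers to each other, and the replicate differences of Ad and Pp correlated across probe sets at -0.24 on MOE430A and -0.04 on MOE430B. Paired crosswise on MOE430A, a setting chosen after seeing the data, 47 probe sets and 0 of the 8 genes passed.

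Of 399 alternative values of single probe sets, 352 kept direction and side of the threshold, 12 lost a call, 19 gained one and 16 changed sign, none of those 16 from a called value. Apoc2 against the whole embryo was -0.067 with no centring, -0.0014 with no filter, -0.0099 with the stricter filter, and -0.16 to 0.19 on leaving out an array. Ad minus Pp of Apoa4 was 0.015 with no centring for 1417761_at and, on leaving out an array, -0.35 to 0.25 for that probe set and -0.39 to 0.10 for 1436504_x_at. The same ranges were -0.34 to 0.11 for 1419095_a_at and -0.41 to 0.058 for 1419096_at (Apom), -0.040 to 0.39 for Apoe and -0.10 to 0.11 for Apob on MOE430B. The cause was not tested.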
